A study of Mus musculus with 24 samples.

Results

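The genes examined here were 40 genes that build ribosomes or work in the nucleolus, chosen by their symbols from the 26411 genes counted in each of 24 RNA-seq libraries. All 40 were found and all 40 passed the filter on low counts in both conditions. The libraries came from neural stem and progenitor cells (NSPCs) of C57BL/6 mouse embryos at E12.5. The cells were taken from the dorsal telencephalon, the part of the embryonic brain that forms the cortex. The embryos were Kat6a+/+, Kat6a+/- or Kat6a-/-. Cells were expanded in neurosphere culture, but the study reports that growth form went with genotype. Kat6a+/+ cells floated as spheres, and Kat6a+/- colonies were smaller and tended to attach. Kat6a-/- cells made few floating colonies, attached to the plastic and proliferated more slowly. Kat6a encodes a histone acetyltransferase, and its null allele lacks 5 exons in every cell rather than in one chosen cell type. RNA was collected after 3 days in medium with the growth factors FGF2 and EGF (proliferating) or after 3 days on a poly-ornithine and laminin coat with 1% serum (differentiating), with 4 libraries for each genotype in each condition. RNA was extracted with a different kit in each condition, so kit and condition cannot be told apart.

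Ribosomes are assembled in the nucleolus. RNA polymerase I transcribes the precursor of the large ribosomal RNAs, small nucleolar ribonucleoproteins (snoRNPs) guide the chemical modification of that precursor, and a relay of assembly factors folds and cuts it while ribosomal proteins join. The factor MYC is known to raise the transcription of many of these genes, and dividing cells make far more ribosomes than resting cells do. The 40 genes were described by role. The groups were the box C/D snoRNP core (Nop56, Nop58, Fbl), the box H/ACA snoRNP core (Dkc1, Gar1, Nhp2), 2 subunits of RNA polymerase I (Polr1a, Polr1b), 5 nucleolar proteins, 10 members of the processome that builds the small subunit, 5 factors of late small subunit maturation, 11 large subunit assembly factors, and Myc itself.

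Total counts per library ranged from 7826660 to 40838203. Levels are given as CPM, the share of a library's counts scaled to a common library size, with TMM factors within a condition. Kat6a counts include the exons outside the deletion (361.9 ± 24.5 CPM in proliferating Kat6a-/- against 393.3 ± 11.7 CPM in Kat6a+/+, SD, n = 4) and so do not check the genotype labels. Libraries that stand apart bear on what follows. Proliferating Kat6a-/- replicate 4 had 0.358% of its counts in the 40 genes, against 0.532% to 0.549% in the other 3 Kat6a-/- libraries. This library shared its litter with Kat6a+/- replicate 4 and with no proliferating Kat6a+/+ library. In differentiating NSPCs, Kat6a-/- replicate 3 carried 69% of the quality weight of its group and replicate 2 carried 4.22%. Nothing in the labels gives the sex of an embryo, and sex was not a term of any fit.

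The stretch of DNA around the start of transcription was available for 34 of the 40 genes, as RefSeq promoters of the GRCm38.p6 build that span 250 bases before to 50 after the start. The canonical E-box that MYC and its relatives can bind has the letters CACGTG, which read the same on both strands. It was present in 9 of the 34 genes (26.5%), in 16.9% of 89 other ribosome biogenesis genes, in 11.5% of the genes tested in all 24 libraries and in 8.09% of all genes in the promoter table. Counted by promoter, it was in 23.7% of the members' promoters and in 7.15% of all promoters. These 9 sites are shown because they let the sequence be read beside the response of each gene. Each line gives 30 bases on the strand of the gene, 5′ to 3′, with the E-box in capitals.

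Nop2: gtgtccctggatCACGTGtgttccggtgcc
Utp18: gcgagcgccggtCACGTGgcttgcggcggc
Pes1: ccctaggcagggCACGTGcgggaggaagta
Utp4: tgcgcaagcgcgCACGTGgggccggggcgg
Wdr43: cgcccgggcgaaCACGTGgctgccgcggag
Tsr1: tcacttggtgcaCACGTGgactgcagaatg
Ltv1: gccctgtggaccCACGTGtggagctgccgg
Utp20: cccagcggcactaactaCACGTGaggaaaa
Mybbp1a: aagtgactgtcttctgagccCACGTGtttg

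In Nop2 and Utp18 the E-box began 60 and 20 bases before the start that the promoter is built on. In the other 7 it began 3 (Pes1) to 41 (Mybbp1a) bases after it, where base 1 is the start. This start can differ from the end of a gene's mm39 span. The Utp18 run, at chr11:93776595-93776624, lay within its span of 93749879 to 93776978 on the reverse strand. An exact match of each run in the GRCm39 genome, the build of the counts, was found once on its chromosome, for example chr11:3913965-3913994 on the forward strand for Pes1 and chr10:88662627-88662656 on the reverse strand for Utp20. Other motifs were searched on both strands. CCGGAAG, the core of ETS factor sites, was in 29.4% of the 34 genes, 51.7% of the 89 other ribosome biogenesis genes and 18.9% of the genes tested. In the same order, CCAAT was in 38.2%, 38.2% and 43.4%, and CTCGCGAG in 2.94%, 1.12% and 2.07%. No match of one motif overlapped a match of another in the members. A match is a description of letters and not a site at which binding was measured.

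Differentiating and proliferating Kat6a+/+ NSPCs were compared first, conditions that differ in medium, serum, coat and extraction kit. Summed markers of cycling cells, scaled within each condition, were at 3018 to 3355 CPM in proliferating and still at 629 to 1120 CPM in differentiating libraries. Ribosome biogenesis genes fell almost as a block. All 40 passed an FDR (false discovery rate) of 0.05, which is what called means here, with 39 lower and 1 higher in differentiating cells. Myc fell 12.7-fold, and the nucleolar GTPase Gnl3, known for its high level in stem cells, fell 5.4-fold. Among all 13590 genes tested, 72.9% were called and 36.2% were called lower. The median log2 fold change was -1.41 for the members against 0.02 for all genes, and 33 of the 40 (82.5%) had a log2 fold change beyond 1 in size against 36.2% of all genes. The summed level of the 40 genes, scaled over all 24 libraries, was 5860 ± 177 CPM in proliferating and 2250 ± 152 CPM in differentiating Kat6a+/+ libraries (SD, n = 4), and the ranges, 5610 to 5990 and 2030 to 2370, lay far apart.

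Levels were also divided by the gene length deposited with the counts, which need not be the length of 1 transcript. By this measure the highest members in proliferating Kat6a+/+ NSPCs were Npm1 (275.4 CPM per kb), encoding a histone and ribosome chaperone of the nucleolus, Ncl (138.8 CPM per kb), encoding nucleolin, and Nop56 (95.6 CPM per kb). The order rests on these lengths, 1718 bases for Npm1 and 8257 for Ncl, whose undivided level was higher (1146 CPM). Rrp12 was the lowest by this measure at 9.62 CPM per kb. Scaled over all 24 libraries, Npm1 had 466.4 to 482 CPM in the 4 proliferating and 97.5 to 120.7 CPM in the 4 differentiating Kat6a+/+ libraries. This was a 4.16-fold fall (log2 fold change -2.06, limma FDR = 3.32e-10). The spread within each condition was small beside the gap between them. Ncl fell 2.36-fold.

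Both snoRNP cores fell. In the box C/D core, whose enzyme fibrillarin methylates ribosomal RNA, Nop56 fell 4.12-fold and Nop58 2.90-fold, while the gene of the enzyme, Fbl, fell 1.79-fold. In the box H/ACA core, whose enzyme dyskerin converts uridine to pseudouridine, the falls were 3.59-fold for the enzyme gene Dkc1, 2.78-fold for Gar1 and 2.47-fold for Nhp2. Of the catalytic subunits of RNA polymerase I, Polr1b fell 3.57-fold (log2 fold change -1.84, SE 0.15) and Polr1a 1.49-fold (-0.57, SE 0.13). The difference between the pair was not tested.

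Among the other nucleolar proteins, the DEAD-box helicase gene Ddx21 fell 3.55-fold, Mybbp1a 3.18-fold and Nolc1 2.84-fold. The 10 processome genes fell by log2 fold changes of -0.69 (Ddx10) to -1.67 (Utp20), with a median of -1.19, and the 5 genes of late small subunit maturation by -0.90 (Rrp12) to -1.57 (Nob1, encoding the endonuclease that makes the final cut of 18S RNA). Of the 11 large subunit factors 10 were lower. The PeBoW complex, made of Pes1, Bop1 and Wdr12, fell 2.05-fold, 2.02-fold and 2.34-fold, and Rrp1b, a nucleolar partner of protein phosphatase 1, fell 4.59-fold.

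Rrp1 was the exception. On the 24-library scale it had 194, 193.1, 173.8 and 187.9 CPM in proliferating Kat6a+/+ replicates 1 to 4 and 231.6, 218, 233 and 239.9 CPM in differentiating replicates 1 to 4. Every differentiating library was above every proliferating one (log2 fold change 0.30, SE 0.05, limma FDR = 4.48e-05). Its relative Rrp1b moved the other way, from 99.7 to 109.8 CPM down to 19.7 to 27 CPM. In Kat6a+/- and Kat6a-/- NSPCs, comparisons added after the data were seen, Rrp1 was also higher in differentiating cells, by 0.25 (SE 0.05, limma FDR = 0.000341) and 0.28 (SE 0.05, limma FDR = 9.04e-05) on the log2 scale.

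The same direction was seen in the other genotypes. In Kat6a+/- NSPCs 40 of 40 members were called, 39 lower, where 69.7% of all genes were called and 34.2% called lower, and the median log2 fold change was -1.37. In Kat6a-/- NSPCs 40 of 40 were called, 39 lower, where 69.2% of all genes were called and 33.5% called lower, and the median was -1.10. The count was 40 in each of the alternatives computed, save that with litter as a fixed term Polr1a was not called in Kat6a+/- NSPCs (39 called). Of 111 other ribosome biogenesis genes (further snoRNP, small subunit, large subunit and RNA polymerase I factors), 101 were called in Kat6a+/+ NSPCs, 98 lower and 3 higher, with a median of -0.72. Of 79 cytosolic ribosomal protein genes 70 were lower and 1 was higher, and of 13 genes of the RNA exosome, which trims ribosomal RNA, 11 were lower and 0 higher. The RNA polymerase III machinery, which makes 5S RNA, had 14 of 21 genes lower and 3 higher. Over all genes in Kat6a+/+ NSPCs 72.9% were called and 36.2% called lower.

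**Figure D1:**
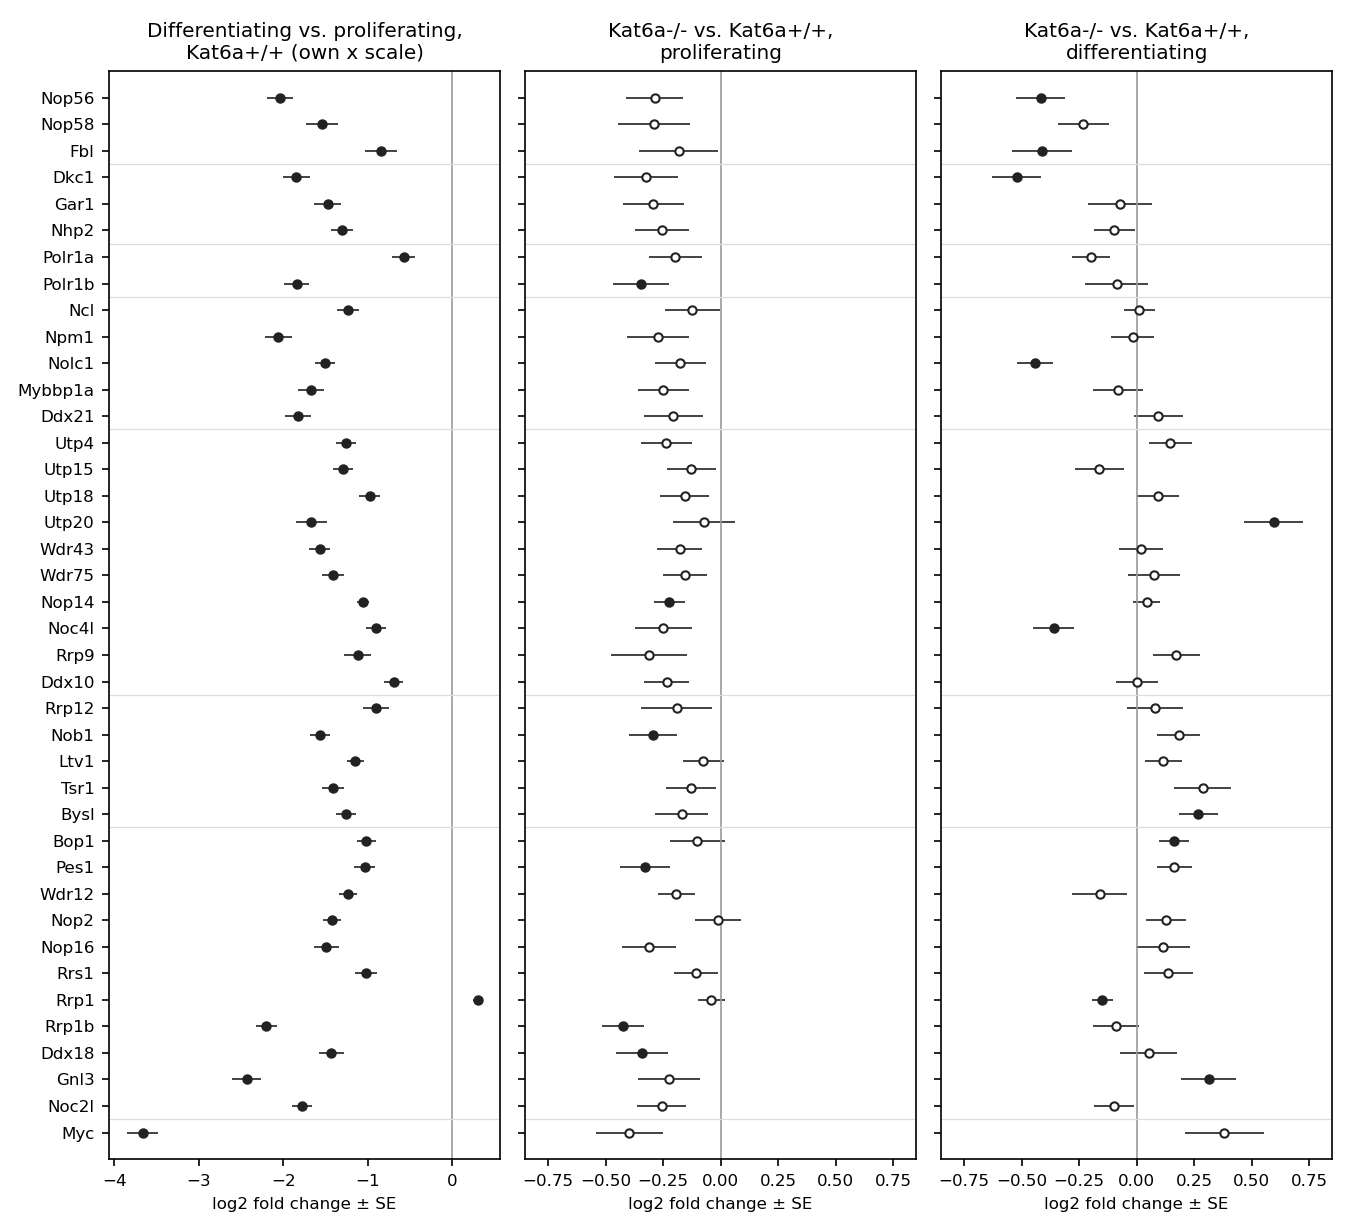
Log2 fold changes (x axis, points, with SE as bars) of the 40 genes (y axis, grouped by role), filled where the FDR is under 0.05, for differentiating vs. proliferating Kat6a+/+ NSPCs (left, with its own x scale) and for Kat6a-/- vs. Kat6a+/+ NSPCs in proliferating (middle) and differentiating cells (right). On the left Rrp1 alone lies above 0, in the middle the 6 filled points all lie below 0, and on the right the 10 filled points lie on both sides.

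The next question was how loss of Kat6a bears on ribosome biogenesis genes while NSPCs divide (Kat6a-/- vs. Kat6a+/+, proliferating). Differences were small. Of the 40 genes 6 were called (15%), all lower in Kat6a-/-, where 30% of the 12276 genes tested were called and 13.8% were called lower. These were Rrp1b, Ddx18, Pes1 (large subunit), Nop14 (processome), Nob1 (late small subunit) and Polr1b (RNA polymerase I). All 40 estimates were below 0, from -0.42 (Rrp1b) to -0.01 (Nop2), with a median of -0.22 against -0.00 over all genes. The share called in either direction was below that of all genes, and the share called lower was close to it.

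The size of this shift rested on 1 library. Relative to the mean of the Kat6a+/+ libraries, the median log2 difference of the 40 genes was -0.09, -0.12 and -0.07 in Kat6a-/- replicates 1, 2 and 3, and -0.71 in replicate 4. Replicate 4 lay below the lowest Kat6a+/+ library for 39 of the 40 genes, and replicates 1 to 3 for 19 to 25 of them. The summed level was 5690 to 6000 CPM in the 4 Kat6a+/+ libraries, 5453 to 5621 CPM in Kat6a-/- replicates 1 to 3 and 3601 CPM in replicate 4. Without replicate 4 only Rrp1b was called, where 21.6% of all genes were called, and the median was -0.08. Without its whole litter, an alternative chosen after the data were seen, Rrp1b, Pes1 and Nop14 were called and the median was -0.07. The summed level of 10 markers of cycling cells was also lowest in replicate 4, at 1714 CPM against 2836 to 3039 CPM in the other Kat6a-/- and 3018 to 3355 CPM in the Kat6a+/+ libraries. The part of cycling cells in this result was not tested. In these bulk samples fewer cells of a type and less RNA per cell cannot be told apart.

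**Figure D2:**
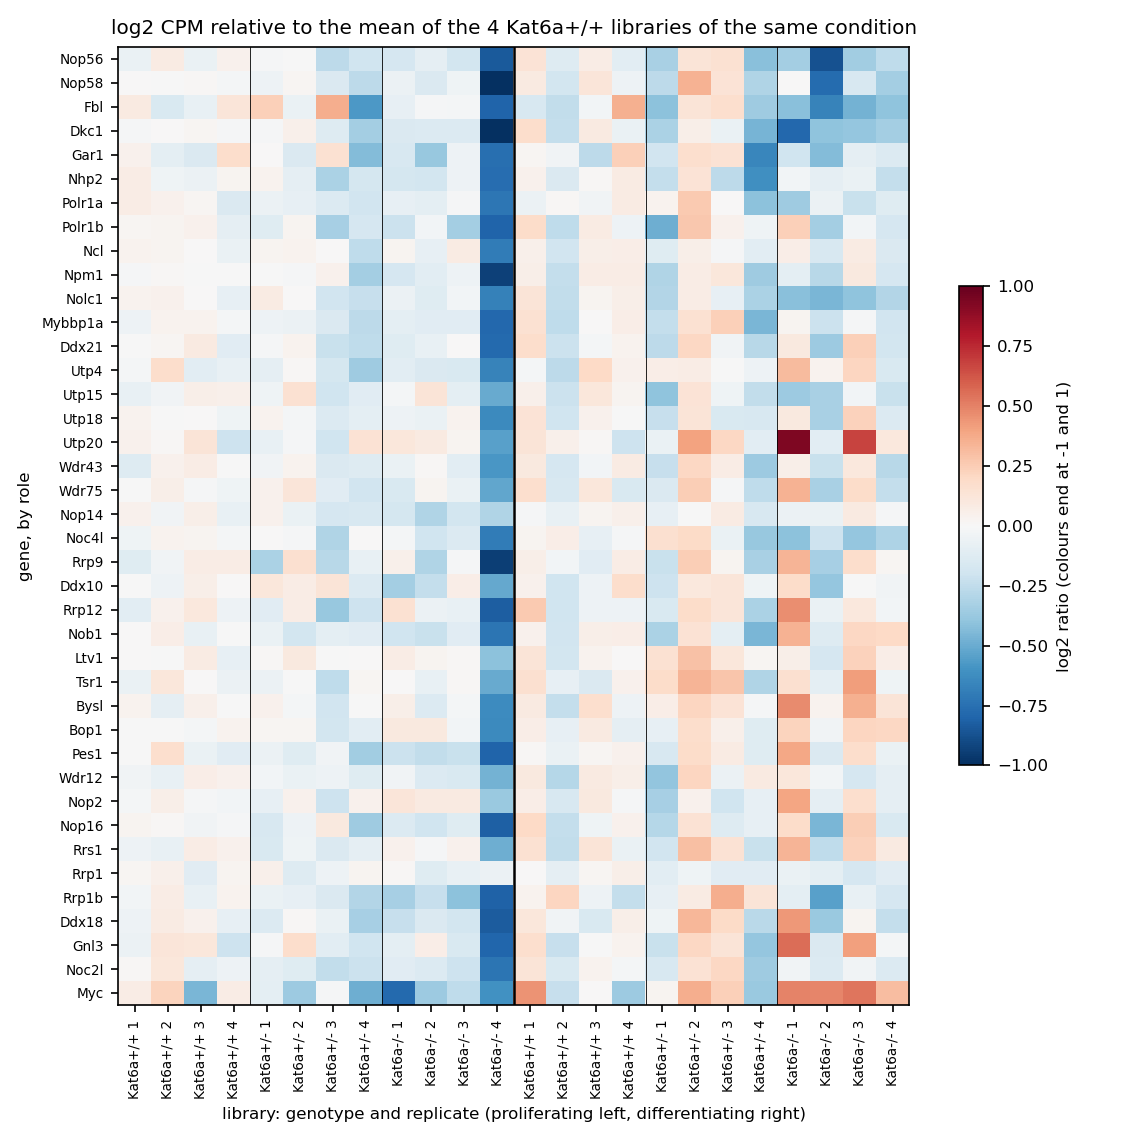
Log2 CPM of each of the 40 genes (y axis, by role) in each of the 24 libraries (x axis, genotype and replicate), relative to the mean of the 4 Kat6a+/+ libraries of the same condition, in colours that end at -1 and 1. The proliferating Kat6a-/- replicate 4 is lower for nearly every gene (median -0.71), Rrp1 being the exception.

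Rrp1b kept its call in each of the 21 alternatives, and no other member did. It lies on chromosome 17 (mm39, 32255073 to 32282540, Entrez 72462). Its levels were 102.4, 109.9, 99.0 and 106.9 CPM in Kat6a+/+ replicates 1 to 4. Kat6a+/- libraries had 99.7, 98.5, 94.7 and 85.2 CPM, and Kat6a-/- libraries 83.0, 88.9, 78.5 and 59.6 CPM. All 4 Kat6a-/- libraries were below all Kat6a+/+ libraries, with or without replicate 4. The fitted difference was 1.34-fold (log2 fold change -0.42, SE 0.09, limma FDR = 0.00489), and without replicate 4 it was -0.33 (limma FDR = 0.00893). The estimate after differentiation was -0.09 (SE 0.10, limma FDR = 0.459). Tested directly over all 24 libraries, the Kat6a-/- effect on Rrp1b was not called different between conditions (0.28, SE 0.18, limma FDR = 0.321).

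Nop14, a scaffold of the processome, had 71.2, 67.2, 72.0 and 65.7 CPM in Kat6a+/+ libraries, against 61.0, 56.1, 60.9 and 56.0 CPM in Kat6a-/- replicates 1 to 4. The groups did not overlap, and here replicate 4 was like the others (log2 fold change -0.22, SE 0.07, limma FDR = 0.0238). The call was lost without replicate 4 all the same (-0.21, limma FDR = 0.0546), with a nearly equal estimate.

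Ddx18, a helicase of large subunit assembly, had 47.5, 51.9, 50.7 and 46.5 CPM in Kat6a+/+ libraries, against 42.0, 44.4, 43.2 and 27.5 CPM in Kat6a-/- replicates 1 to 4 (log2 fold change -0.34, SE 0.11, limma FDR = 0.0342). Pes1 had 114.4, 129.3, 109.4 and 106.2 CPM in Kat6a+/+ against 99.1, 96.7, 98.2 and 66.0 CPM in Kat6a-/- (log2 fold change -0.33, SE 0.11, limma FDR = 0.0353). Both groups were again separate, with replicate 4 much the lowest. Without it the estimates were -0.20 for Ddx18 (limma FDR = 0.122) and -0.22 for Pes1 (limma FDR = 0.0807).

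Nob1 (log2 fold change -0.29, SE 0.10, limma FDR = 0.0439) and Polr1b (-0.35, SE 0.12, limma FDR = 0.0453) were close to the threshold, and without replicate 4 they were at -0.17 (limma FDR = 0.0748) and -0.21 (limma FDR = 0.127). At the other end, Nop2, an RNA methyltransferase, had 91.7 to 97.4 CPM in Kat6a+/+ against 102, 99.9, 99.8 and 72.6 CPM in Kat6a-/- replicates 1 to 4, so 3 of 4 were above every Kat6a+/+ library and 1 was below (log2 fold change -0.01, SE 0.10). Utp20 had 123.5 to 156.5 CPM and 154.6, 152.3, 145.3 and 98.2 CPM (log2 fold change -0.07, SE 0.13). In 13 of the 40 genes (32.5%) all 4 Kat6a-/- libraries lay below all 4 Kat6a+/+ libraries, and in 0 they lay above. Over all genes the groups did not overlap, in either direction, for 30.8%, and the share lower was not counted.

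By role, the members not called were also below 0. The box C/D core had estimates of -0.18 to -0.29 and the box H/ACA core -0.25 to -0.32, with 0 of 3 called in each. The 5 nucleolar proteins lay at -0.12 (Ncl) to -0.27 (Npm1), with 0 called, and 1 of 10 processome genes and 3 of 11 large subunit genes were called. Beside the 30% of all genes called and the 13.8% called lower, such small counts say nothing about 1 role against another. Of the 111 other ribosome biogenesis genes 19 were called, 16 lower and 3 higher, with a median of -0.15, and the count ranged from 5 to 26 over the alternatives. Genes with the smallest p of their list included Ruvbl2 (log2 fold change -0.58, limma FDR = 0.00602), an ATPase of snoRNP assembly, and Polr1c (-0.49, limma FDR = 0.00261), a subunit shared by RNA polymerases I and III. Ubtf, the nucleolar activator of ribosomal RNA genes, was higher (0.21, limma FDR = 0.0225).

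The cytosolic ribosomal protein genes had 38 of 79 called, all lower (22 to 47 over the alternatives). The RNA exosome had 2 of 13 and the RNA polymerase III machinery 3 of 21 called, all lower. MYC targets outside the nucleolus had 6 of 23 called, all lower, among them Shmt2 (-0.44) and the transferrin receptor gene Tfrc (-0.58). Targets of p53, a factor that is known to be stabilised when ribosome assembly fails, had 7 of 15 called, all higher, with Ccng1 at 1.15, Trp53inp1 at 0.92 and Eda2r at 0.84 on the log2 scale. Whether ribosome assembly failed in these cells was not tested. Over all 12276 genes tested 30% were called, with 1993 genes higher and 1693 (13.8%) lower.

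**Figure D3:**
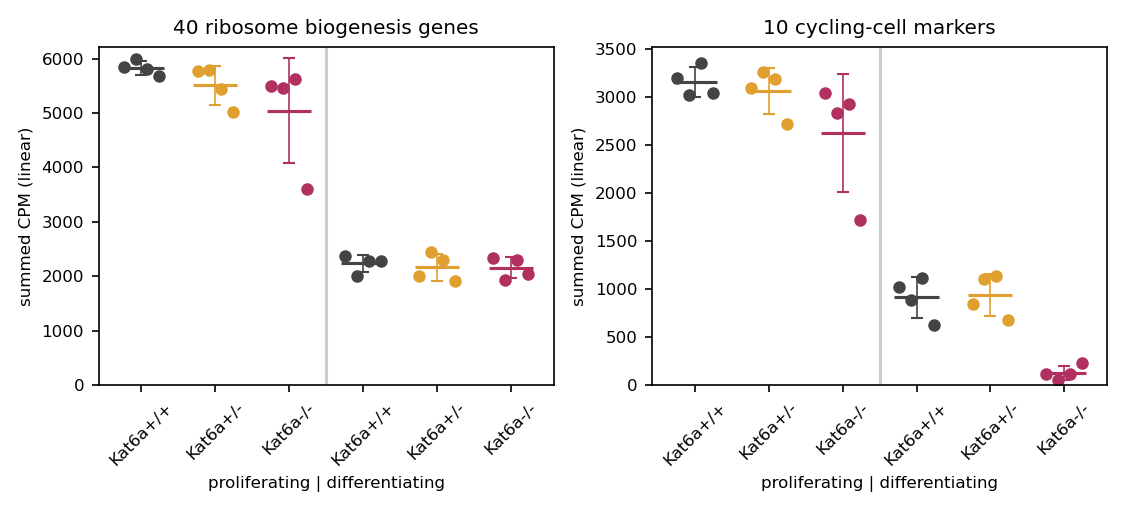
Summed CPM (y axis, linear) of the 40 ribosome biogenesis genes (left) and of 10 markers of cycling cells (right) in each library (points), with the mean (line) and SD (bar) of each group of 4 (x axis). In differentiating NSPCs the members lie between 1920 and 2450 in every group, while the cycling markers lie at 52 to 227 in Kat6a-/- and at 629 to 1140 in the other genotypes.

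Kat6a-/- vs. Kat6a+/+ NSPCs after differentiation were examined next. Few of the 40 genes differed, and by little. Their summed level was 2010 to 2360 CPM in Kat6a+/+ against 1930 to 2340 CPM in Kat6a-/- libraries, and the ranges overlapped almost fully. Of the 40 genes 10 were called (25%), 4 higher and 6 lower, where 54.4% of 13339 genes were called, 26.7% higher and 27.7% lower. The share of all genes called rested on the fit, since it was 24.4% with edgeR (2 members), 30.6% with DESeq2 (3 members), 23.2% without quality weights (2 members) and 13.4% with litter as a fixed term (0 members). The median log2 fold change was 0.03 against -0.02 over all genes, the median size regardless of sign was 0.14 against 0.32, and a log2 fold change beyond 1 in size was seen in 0 members but in 16.3% of all genes.

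In the same libraries, all 10 markers of cycling cells were lower in Kat6a-/-, with a median log2 fold change of -3.05, in this fit and in each of its 21 alternatives. Their summed level was 629 to 1120 CPM in Kat6a+/+ against 52 to 227 CPM in Kat6a-/-. The summed levels of the ribosome biogenesis genes thus overlapped between groups whose cycling markers did not. Such a sum is weighted to abundant genes. Scaled over all 24 libraries, Ncl averaged 488.5 CPM and Rrp1 230.6 CPM of the 2250 CPM in differentiating Kat6a+/+ libraries.

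The 6 genes called lower were Dkc1, Nop56 and Fbl (snoRNP cores), Nolc1 (nucleolar proteins), Noc4l (processome) and Rrp1 (large subunit). Over all genes 27.7% were called lower. Nolc1, which encodes the phosphoprotein that chaperones snoRNPs (chromosome 19, mm39, 46064234 to 46073983), had 78.2, 60.3, 72.7 and 74.3 CPM in Kat6a+/+. Kat6a+/- libraries had 58.4, 75.2, 67.6 and 57.2 CPM, and Kat6a-/- libraries 53.5, 52.0, 54.1 and 58.3 CPM, each in replicates 1 to 4. Every Kat6a-/- library was below every Kat6a+/+ library (1.36-fold, log2 fold change -0.44, SE 0.08, limma FDR = 0.000498). Dkc1 (chromosome X, mm39, 74139460 to 74155456) had 47.6, 35.8, 44.9 and 40.2 CPM in Kat6a+/+ against 24.4, 31.8, 32.2 and 33.3 CPM in Kat6a-/-. These groups did not overlap either (1.44-fold, log2 fold change -0.52, SE 0.11, limma FDR = 0.0014). Both were called in 18 of 21 alternatives, and were lost with litter as a fixed term and without Kat6a-/- replicate 1 or 3, where the estimates were -0.46 (limma FDR = 0.0858) and -0.46 (limma FDR = 0.122) for Nolc1 and -0.45 (limma FDR = 0.154) and -0.57 (limma FDR = 0.126) for Dkc1.

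Nop56 had 52.5, 43.6, 50.4 and 44.4 CPM in Kat6a+/+ against 37.7, 26.1, 37.5 and 40 CPM in Kat6a-/- (log2 fold change -0.42, SE 0.11, limma FDR = 0.00529), and Fbl was at -0.41 (SE 0.13, limma FDR = 0.0189). Their partner Nop58 was at -0.23 (SE 0.11, limma FDR = 0.0999). Thus 2 of 3 genes of the box C/D core were called, where 54.4% of all genes were called. Of the box H/ACA core only Dkc1 was called, with Gar1 at -0.07 and Nhp2 at -0.10. Noc4l, of the processome, had 26, 26.7, 24.1 and 25.2 CPM in Kat6a+/+ against 19.2, 22.1, 19.5 and 20.6 CPM in Kat6a-/- (log2 fold change -0.36, SE 0.09, limma FDR = 0.00467). In 5 of the 40 genes, namely Nolc1, Dkc1, Noc4l, Nop56 and Fbl, the 4 libraries of Kat6a-/- lay apart from those of Kat6a+/+, all lower. Over all genes the groups lay apart, in either direction, for 26.9%, and the share lower was not counted. Rrp1 was the smallest fall called (-0.15, SE 0.04, limma FDR = 0.0141).

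**Figure D4:**
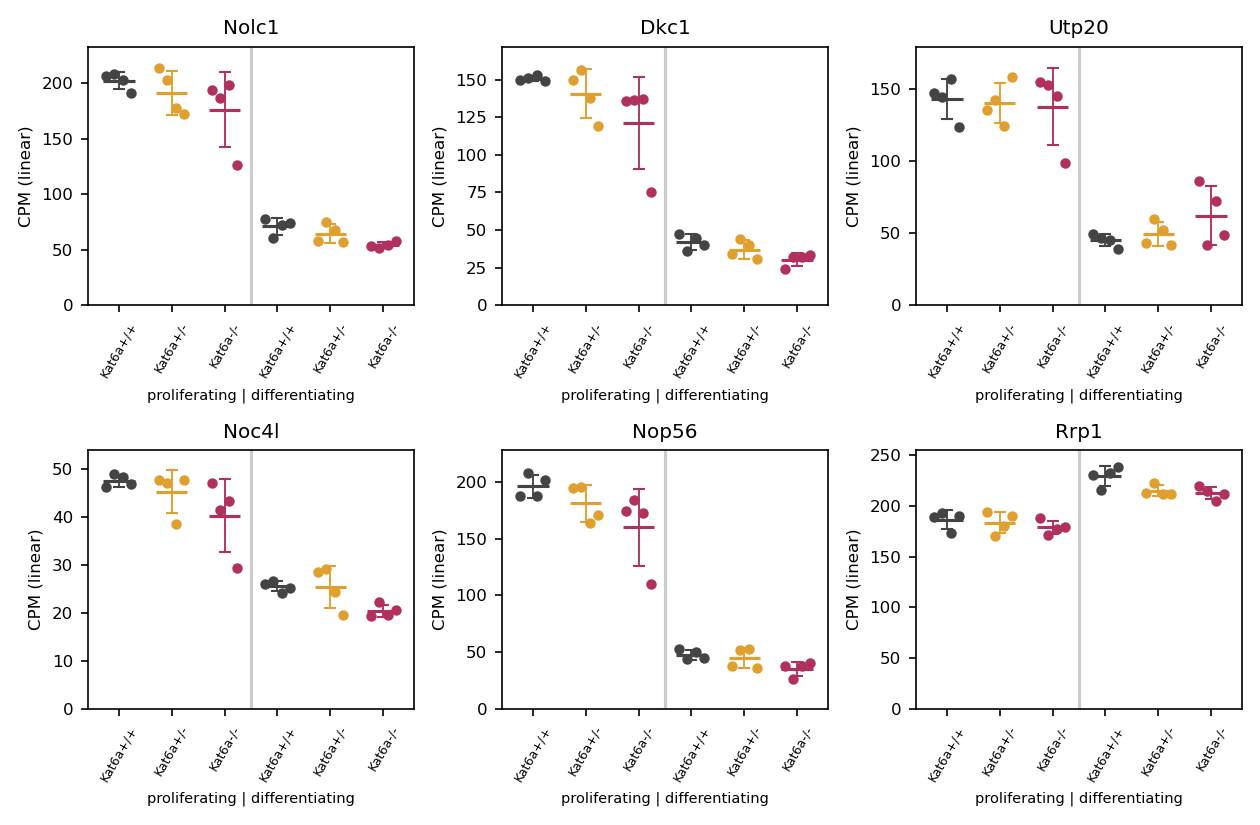
CPM (y axis, linear) of 6 genes in each library (points) with the mean and SD of each group of 4 (x axis, genotypes in proliferating and differentiating NSPCs). In differentiating cells the Kat6a-/- points of Nolc1, Dkc1, Noc4l and Nop56 lie below all Kat6a+/+ points, those of Utp20 spread from 41.8 to 86.3 CPM, and Rrp1 is higher in differentiating than in proliferating cells.

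Genes called higher were less separate. Utp20, a large scaffold of the processome (chromosome 10, mm39, 88582469 to 88662699), had 49.2, 46.7, 45.4 and 39 CPM in Kat6a+/+ against 86.3, 41.8, 72.1 and 48.4 CPM in Kat6a-/- replicates 1 to 4. Only replicates 1 and 3 were above every Kat6a+/+ library (log2 fold change 0.60, SE 0.13, limma FDR = 0.00195). Gnl3 (0.31, SE 0.12, limma FDR = 0.0425), Bysl (0.27, SE 0.09, limma FDR = 0.0184) and Bop1 (0.16, SE 0.06, limma FDR = 0.0465) likewise had 2, 2 and 3 of 4 Kat6a-/- libraries above all Kat6a+/+ libraries. Without Kat6a-/- replicate 1 or replicate 3 the Utp20 estimate was 0.24 (limma FDR = 0.533) or 0.23 (limma FDR = 0.626), and 0 of the 40 genes were called in either fit, where the share of all genes called was 9.01% and 6.99%. Without replicate 2, the library of lowest weight, 22 were called, 13 higher and 9 lower, where 70.6% of all genes were called. The members' counts thus moved in the same direction as those of all genes. Without quality weights only Nolc1 and Dkc1 were called, the same pair as with edgeR.

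The split by direction also moved with the scaling. Scaled by library totals and not by TMM, 13 members were called, 1 higher (Utp20) and 12 lower, the median of all genes lay at -0.17 in place of -0.02, and that of the members at -0.11. Relative to all genes the members' median was thus slightly above 0 under both scalings. At the far end, Ncl had 426 to 508 CPM in Kat6a+/+ against 433.9 to 513.5 CPM in Kat6a-/- (log2 fold change 0.01, SE 0.07), and Ddx10 had 22.1 to 28.7 and 19.4 to 28.8 CPM (log2 fold change 0.00, SE 0.09). For both genes the ranges of the groups overlapped.

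Of the 111 other ribosome biogenesis genes, 36 were called in differentiating Kat6a-/- NSPCs, 12 higher and 24 lower, with a median of -0.05. Beside this and the lists below, 26.7% of all genes were called higher and 27.7% lower. The count for the 111 genes ranged from 0 to 60 over the alternatives. Ruvbl2 was again lower (-0.50, limma FDR = 0.000244), and Rrp36 of the small subunit was higher (0.53, limma FDR = 0.000472). Cytosolic ribosomal protein genes had 9 of 79 called, 5 higher and 4 lower. The RNA exosome had 1 gene higher and 7 lower of 13, the RNA polymerase III machinery 3 higher and 9 lower of 21, and MYC targets outside the nucleolus 5 higher and 9 lower of 23, the cyclin partner gene Cdk4 among them (-1.21). Targets of p53 had 14 of 15 called, all higher (3 to 14 over the alternatives), with the cell cycle inhibitor gene Cdkn1a at 2.48 and Phlda3 at 2.26 on the log2 scale.

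Markers of other cell types moved in these libraries as well. Astrocyte markers summed to 994 to 1620 CPM in Kat6a+/+ against 802 to 5120 CPM in Kat6a-/-, with 1 of 7 higher and 2 lower. Neuronal markers had 1 of 8 higher and 5 lower (542 to 735 CPM in Kat6a+/+ against 467 to 770 CPM in Kat6a-/-), radial glia markers 3 of 8 higher and 4 lower, and oligodendrocyte lineage markers 1 of 6 tested higher and 4 lower (1190 to 1410 CPM in Kat6a+/+ against 689 to 1220 CPM in Kat6a-/-). Mesenchymal markers were higher in 3 of 3 tested (11.9 to 26.2 CPM in Kat6a+/+ against 20.1 to 195 CPM in Kat6a-/-). Microglial markers summed to at most 1.80 CPM, and endothelial markers to 46 to 72.5 CPM in Kat6a+/+ against 10.6 to 36.6 CPM in Kat6a-/-, with 1 of 1 tested lower. In proliferating cells 4 of 6 tested astrocyte markers were higher in Kat6a-/- (204 to 252 CPM in Kat6a+/+ against 433 to 574 CPM in Kat6a-/-), neuronal markers had 1 higher and 3 lower of 7, and radial glia markers 2 higher and 2 lower of 8. Over all 12276 genes tested in proliferating cells 30% were called, 1993 higher and 1693 lower. The part of cell composition in the members' levels was not tested.

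Myc and its relative Mycn were followed in every library. Myc (chromosome 15, mm39, 61857227 to 61862223) had 216, 240.4, 150.1 and 216.2 CPM in proliferating Kat6a+/+ replicates 1 to 4. Kat6a+/- libraries had 192.5, 160.3, 204.1 and 146.6 CPM, and Kat6a-/- libraries 120.3, 159.7, 172.4 and 134.9 CPM. The Kat6a-/- libraries were low but overlapped the lowest Kat6a+/+ library (log2 fold change -0.40, SE 0.15, limma FDR = 0.0553). After differentiation Myc was at 22.5, 14, 16.5 and 12.8 CPM in Kat6a+/+. Kat6a+/- libraries had 16.8, 21.2, 19.4 and 12.8 CPM, and Kat6a-/- libraries 23.2, 23.1, 23.9 and 20.3 CPM. Here the estimate had the other sign (0.38, SE 0.17, limma FDR = 0.0787), with 3 of 4 Kat6a-/- libraries above all Kat6a+/+ libraries.

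For Myc, the Kat6a-/- effect in differentiating cells was then tested against that in proliferating cells. This interaction was 1.02 on the log2 scale (SE 0.26, limma FDR = 0.012), and it was called in each of 31 alternatives, with values of 0.86 to 1.13. Myc fell 12.7-fold on differentiation in Kat6a+/+, 9.92-fold in Kat6a+/- and 6.26-fold in Kat6a-/- NSPCs. Of the 40 genes Myc was the 1 called for the interaction (2.5%), where 13.9% of all genes were called and 6.36% were called higher. The median interaction of the members was 0.23, with 33 of 40 estimates above 0, but it was 0.04 without proliferating Kat6a-/- replicate 4. The cycling markers had 10 of 10 called for the interaction, all lower, with a median of -2.75.

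Mycn (chromosome 12, mm39, 12986076 to 12992915) was not one of the 40 genes but is the closest relative of Myc in the list of the MYC network. It had 2.69, 3.79, 3 and 2.31 CPM in proliferating Kat6a+/+ replicates 1 to 4 and 1.15, 0.655, 1.11 and 1.03 CPM in Kat6a-/-, from 5 to 10 counts per library (log2 fold change -1.51, SE 0.31, limma FDR = 0.00351). After differentiation it had 23.3, 5.03, 19.3 and 15.3 CPM in Kat6a+/+. Kat6a+/- libraries had 8.12, 15.6, 19 and 3.41 CPM, and Kat6a-/- libraries 1.31, 1.36, 1.02 and 3.14 CPM (log2 fold change -3.76, SE 0.44, limma FDR = 2.89e-05). In both conditions all Kat6a-/- libraries were below all Kat6a+/+ libraries, and the call stood in each of 21 alternatives per condition. The interaction of Mycn was not called (-1.59, SE 1.31, limma FDR = 0.444). Unlike Myc, Mycn was higher in differentiating than in proliferating Kat6a+/+ NSPCs (log2 fold change 2.24, SE 0.57, limma FDR = 0.00151).

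In the list of the MYC network as a whole, 4 of 11 tested genes were called in proliferating Kat6a-/- NSPCs, 1 higher and 3 lower, and 7 of 12 in differentiating ones, all lower. Over all genes 30% and 54.4% were called in these comparisons. Mycl was lower in differentiating Kat6a-/- cells (-1.78, SE 0.14, limma FDR = 3.15e-06), as was the MAX partner gene Mxd3 (-3.11, SE 0.24, limma FDR = 2.59e-06). In proliferating Kat6a-/- cells Mxd4 was higher (0.70, SE 0.21, limma FDR = 0.0265) and Mxi1 was lower (-0.98, SE 0.27, limma FDR = 0.0164). In Kat6a+/+ NSPCs the network had 8 genes higher and 3 lower of 12 on differentiation.

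**Figure D5:**
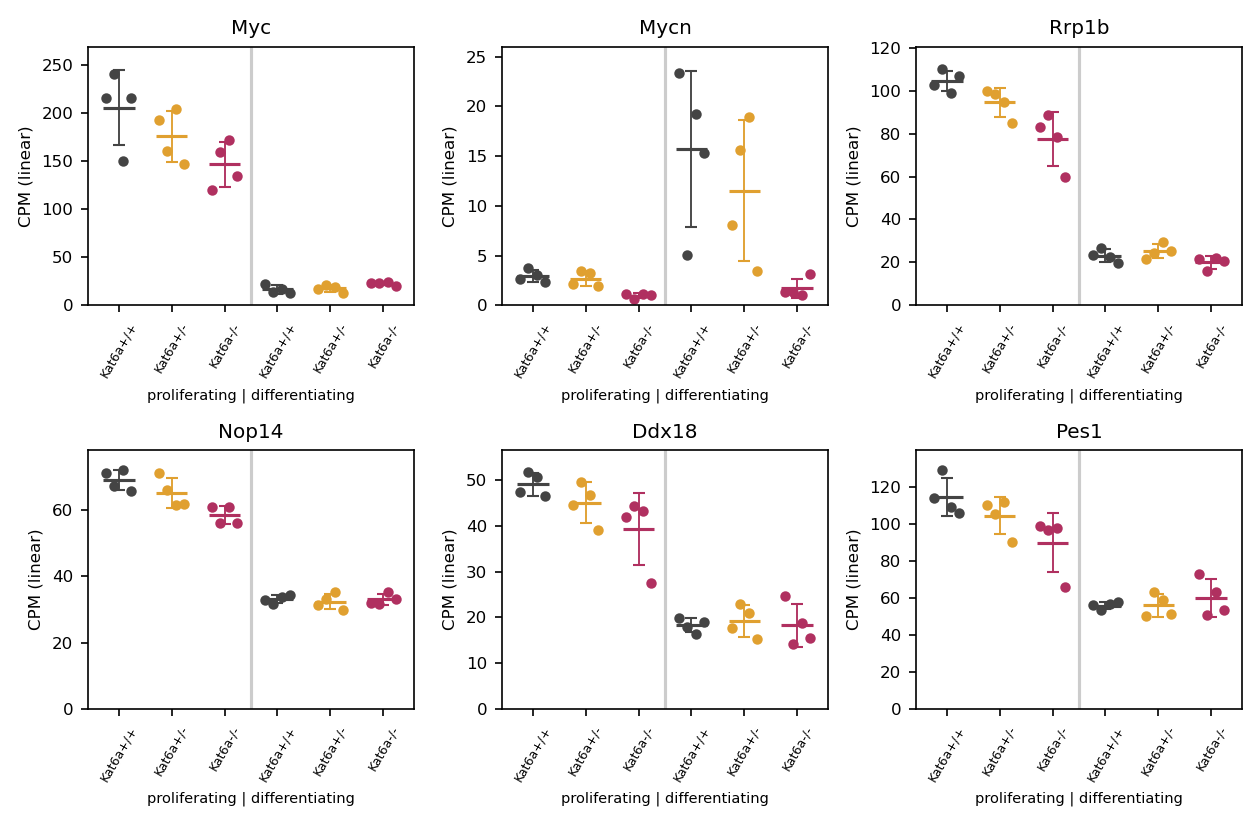
CPM (y axis, linear) of Myc, Mycn and 4 of the members in each library (points) with the mean and SD of each group of 4 (x axis, genotypes in proliferating and differentiating NSPCs). Myc lies at 120 to 240 in proliferating and at 12.8 to 23.9 in differentiating cells, Mycn is below the Kat6a+/+ libraries in every Kat6a-/- library, and the lowest proliferating point of Rrp1b, Ddx18 and Pes1 is Kat6a-/- replicate 4.

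The responses of the 9 genes whose E-box is printed above were as follows, and they were not tested against the other members. In proliferating Kat6a-/- NSPCs Pes1 alone of the 9 was called, where 30% of all genes were called, and the others lay between -0.25 (Mybbp1a) and -0.01 (Nop2). On differentiation of Kat6a+/+ NSPCs the 9 fell by log2 fold changes of -0.98 (Utp18) to -1.67 (Mybbp1a and Utp20).

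NSPCs that kept 1 allele (Kat6a+/-) were set against Kat6a+/+. In proliferating cells limma called 0 of 40 members and 0% of the 12276 genes, and DESeq2 and edgeR also called 0 members. An unadjusted limma p under 0.05 was seen in 0 members and in 912 of the 12276 genes. The estimates had a median of -0.06 and ranged from -0.15 to 0.09. In differentiating cells limma called 0 members and 0% of 13339 genes, and DESeq2 and edgeR called 0 members. An unadjusted limma p under 0.05 was seen in 9 of 40 members and in 1926 of the 13339 genes. The median was -0.14, with 32 of 40 estimates below 0 and a range of -0.32 to 0.12. When 1 library was left out, this median ran from -0.21 to 0.02, so its sign was not stable. Kat6a+/- replicate 1 carried 50.2% of the quality weight of its group. Single Kat6a+/- libraries pulled both ways, since the median log2 difference from the Kat6a+/+ mean was -0.20, 0.17, 0.08 and -0.28 in replicates 1 to 4. Nolc1 had the smallest p (log2 fold change -0.25, SE 0.08, limma FDR = 0.233).

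Between Kat6a-/- and Kat6a+/- NSPCs, a comparison that shares its Kat6a-/- libraries with those above, 2 members were called in proliferating cells, both lower, where 14.8% of all genes were called and 6.3% called lower. These were Rrp1b (-0.31, SE 0.09, limma FDR = 0.0368) and Ddx10 (-0.32, SE 0.09, limma FDR = 0.0369), and neither was called without Kat6a-/- replicate 4. In differentiating cells 7 were called, 6 higher and 1 lower, where 37.5% of all genes were called, 19.1% higher and 18.5% lower. Nob1 (0.45, SE 0.11, limma FDR = 0.00767) and Utp20 (0.58, SE 0.15, limma FDR = 0.0106) led the higher ones, with Nop2, Gnl3, Bop1 and Utp18, and Noc4l was lower (-0.40, SE 0.11, limma FDR = 0.0115). Without Kat6a-/- replicate 1 or 3 the count was 0, where 2.57% and 1.81% of all genes were called, and without replicate 2 it was 17, where 55% were called. With library totals it was 8, with 4 higher and 4 lower, where 44.2% of all genes were called.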

How the data were processed

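Polyadenylated RNA of 24 NSPC cultures (4 per genotype and condition) was sequenced. The authors aligned reads to mm39 with Rsubread and deposited raw counts per gene from featureCounts with a strict RefSeq annotation. Versions and the strand setting are not given in the sources used here, so genes that overlap on opposite strands or share near-identical copies carry some uncertainty. Per the labels, processing used bcl2fastq and featureCounts. Gene lengths came from the deposited tables.

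Protein-coding genes (21030, by Entrez ID in a RefSeq table, with genes that mark sex removed) that passed filterByExpr of edgeR were scaled by TMM. For proliferating libraries limma-voom was used with litter as a random block, for differentiating libraries limma-trend (prior count 2) and arrayWeights, and for all 24 together limma-voom and litter, each with robust moderation and Benjamini-Hochberg adjustment over all genes tested. Tools were limma 3.58.1, edgeR 4.0.16, DESeq2 1.42.0 and R 4.3.3. Proliferating libraries came from 5 litters and differentiating ones from 7, and 6 embryos were in both conditions. Cultures came from embryos, yet p-values measure only the spread among these libraries, 4 per group. The groups of a fit share 1 estimate of that spread. CPM carry no quality weights, so a fitted fold change can differ from a ratio of means. No 2 replicates agreed within sampling noise (lowest chi-square per degree of freedom 5.81).

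The 40 genes and all lists were chosen with earlier results of these data known. By rule, single-library values are given for Myc, Mycn and the 4 members with the smallest and 2 with the largest p in each Kat6a-/- vs. Kat6a+/+ comparison. Values of Rrp1 and Npm1 on differentiation, of Nop56 and of Gnl3 were added after they were seen. For the other lists at most 3 genes with the smallest p per list are named. The fits were tested on simulated data. Alternatives were other scaling, DESeq2, edgeR, no filter, no weights, litter and replicate terms, 2 groups only, and leaving out each library.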

Additional observations from a re-analysis of the deposited data

Results flagged for a closer look

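Each of the 40 genes was examined in each of the 6 groups for a library that lay far from the other 3 of its group, by the gap to the nearest library as a share of the group's range (Dixon's 95% limit). Of 240 such tests 26 (10.8%) passed the limit, where chance gives about 1 in 20, and the tests are not independent because 1 library can carry many genes. Proliferating Kat6a-/- replicate 4 was the low library in 15 of the 26. Its levels were 110 CPM for Nop56, 78.5 for Nop58, 22.1 for Fbl, 75.3 for Dkc1, 82.4 for Polr1a, 127 for Nolc1, 232 for Mybbp1a and 36.9 for Utp4. In the same library Utp20 was at 98.2 CPM, Ltv1 at 36.7, Pes1 at 66, Nop2 at 72.6, Nop16 at 28, Rrs1 at 61.4 and Ddx18 at 27.5 CPM. The share of counts in the 40 genes was 0.358% in this library, and its cycling markers summed to 1714 CPM. The other library of its litter, proliferating Kat6a+/- replicate 4, was low for Ncl (959 CPM) and Npm1 (374 CPM). The part of litter and of cycling cells in these levels was not tested.

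Differentiating Kat6a+/+ replicate 2 was the low library for Ncl (426 CPM), Npm1 (96.6 CPM), Nob1 (18.6 CPM) and Wdr12 (13.4 CPM). Differentiating Kat6a-/- replicate 1 was low for Dkc1 (24.4 CPM) and replicate 2 for Bop1 (48.6 CPM). Proliferating Kat6a+/- replicate 3 was low for Noc4l (38.5 CPM), replicate 2 was high for Ltv1 (52 CPM), and differentiating Kat6a+/- replicate 2 was high for Rrp1 (223 CPM).

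The effect of losing both Kat6a alleles differed between conditions for Myc by the interaction term (1.02 on the log2 scale, limma FDR = 0.012), with an estimate below 0 in proliferating and above 0 in differentiating NSPCs. The 10 cycling markers had a median interaction of -2.75.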

How the results depend on the processing

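Each comparison was recomputed with other scaling, tools, filters, terms and libraries. On differentiation the count of members called was 40 in every alternative for Kat6a+/+ and Kat6a-/-, and 40 for Kat6a+/- save with litter as a fixed term (39, Polr1a not called), and for Kat6a+/- vs. Kat6a+/+ it was 0 in every alternative in both conditions. The other counts moved. In proliferating Kat6a-/- vs. Kat6a+/+ NSPCs (6 called) litter as a fixed term gave 1, a fit of only these 2 groups gave 3, leaving out the litter with no Kat6a+/+ library gave 3, and leaving out 1 library at a time gave 1 to 7. It was 1 without Kat6a+/+ replicate 1 or Kat6a-/- replicate 4, 2 without Kat6a+/+ replicate 2 and 3 without Kat6a+/+ replicate 3. In differentiating Kat6a-/- vs. Kat6a+/+ NSPCs (10 called) DESeq2 gave 3, edgeR 2, no filter 6, no quality weights 2 and litter as a fixed term 0, and leaving out 1 library gave 0 to 22. In proliferating Kat6a-/- vs. Kat6a+/- NSPCs (2 called) DESeq2, edgeR, no filter, no litter term, the replicate block and a fit of 2 groups each gave 0, leaving out the litter with no Kat6a+/+ library gave 1, and leaving out 1 library gave 0 to 2. In differentiating Kat6a-/- vs. Kat6a+/- NSPCs (7 called) DESeq2, edgeR, no quality weights and litter as a fixed term each gave 0, no filter gave 2, and leaving out 1 library gave 0 to 17. Utp18 in that comparison (0.30) ranged from -0.025 to 0.36 when 1 library was left out, with -0.025 (limma FDR = 0.974) without Kat6a-/- replicate 3. For the interaction (1 called) DESeq2 gave 2, and leaving out 1 library gave 1 to 5, with 5 without differentiating Kat6a-/- replicate 2. The causes were not tested.

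Replicate numbers are shared by the groups, but deviations of same-numbered libraries correlated from -0.428 to 0.545 in proliferating and from -0.483 to 0.156 in differentiating NSPCs over 12 pairs each, so the numbers do not pair the libraries. With the replicate block Kat6a-/- vs. Kat6a+/+ gave 6 members called while proliferating and 11 while differentiating, 6 in differentiating Kat6a-/- vs. Kat6a+/- NSPCs and 1 for the interaction. Low totals limit genes such as Mycn, with 5 to 10 counts per proliferating Kat6a-/- library.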
